A study of Mus musculus with 11 samples.

Results

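Open chromatin was examined at 9 core genes of the Hippo pathway, Tead1, Tead2, Tead3, Tead4, Yap1, Wwtr1, Vgll4, Lats1 and Lats2, in fetal mouse lung epithelium that lacked Prdm3 and Prdm16. A peak, a stretch of DNA called as accessible by ATAC-seq, belonged to one of these genes where that gene had the nearest protein-coding gene body, at most 100 kb away. ATAC-seq uses a transposase to mark DNA that is not packed away in chromatin. Of 83262 regions of open chromatin tested across the genome, 95 belonged to these genes. They came from 118 windows that had a peak in any library, the other windows having one in fewer than 3 of the 11 libraries.

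The series held 5 libraries of Prdm3/16KO lungs and 6 libraries of Control lungs, all at E17.5. In the knockout, floxed alleles of Prdm16 and of Prdm3 (gene symbol Mecom) were deleted by Cre expressed from the Shh locus, which is active in lung epithelium and in other Shh-expressing tissues. The Cre allele came from fathers with 1 wild-type Prdm16 allele. The labels call the other group Control without a genotype, so whether these animals carried floxed alleles or Cre is not given in the sources used here, and the labels do not tie a library to an animal. Cells of dissociated lungs were selected with EpCAM microbeads, and EpCAM is a surface protein of epithelial cells. The labels name no batch, so a batch that followed the genotype and the genotype itself cannot be told apart.

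The Hippo pathway couples cell contact and tissue stretch to growth and cell fate. Its kinases LATS1 and LATS2 phosphorylate the co-activators YAP (gene Yap1) and TAZ (gene Wwtr1), which keeps them out of the nucleus. Unphosphorylated YAP and TAZ enter the nucleus and bind the DNA through the TEAD factors, and VGLL4 competes with them for TEAD. In the lung, YAP and TAZ are known for their part in the growth of the fetal airway epithelium and in the differentiation of alveolar type 1 cells.

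Start windows of 5 of the genes are shown because they hold the core of the TEAD motif and overlap gene-end regions, described below, that had a peak in all 11 libraries. Where a gene had several such windows, 1 is shown, for Tead3 that with most copies. Each runs from 250 bases before to 50 bases after an annotated transcription start, 5′ to 3′, from RefSeq on GRCm38.p6, the assembly also called mm10. Capitals mark GGAATG or its reverse complement CATTCC, the core of the known TEAD motif.
Yap1, chr9:8004547-8004846, minus strand: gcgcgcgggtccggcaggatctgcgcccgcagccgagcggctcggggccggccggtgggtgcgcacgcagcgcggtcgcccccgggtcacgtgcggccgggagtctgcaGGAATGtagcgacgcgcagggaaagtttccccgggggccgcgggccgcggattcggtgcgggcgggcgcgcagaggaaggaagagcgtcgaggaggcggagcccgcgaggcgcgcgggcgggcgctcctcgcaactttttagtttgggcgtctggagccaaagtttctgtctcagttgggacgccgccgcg
Wwtr1, chr3:57575861-57576160, minus strand: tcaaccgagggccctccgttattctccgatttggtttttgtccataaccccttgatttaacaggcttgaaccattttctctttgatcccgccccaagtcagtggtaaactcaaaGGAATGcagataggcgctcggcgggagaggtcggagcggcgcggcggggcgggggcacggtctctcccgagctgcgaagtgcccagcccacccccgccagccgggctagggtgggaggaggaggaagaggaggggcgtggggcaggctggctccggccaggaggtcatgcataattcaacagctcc
Tead3, chr17:28350551-28350850, minus strand: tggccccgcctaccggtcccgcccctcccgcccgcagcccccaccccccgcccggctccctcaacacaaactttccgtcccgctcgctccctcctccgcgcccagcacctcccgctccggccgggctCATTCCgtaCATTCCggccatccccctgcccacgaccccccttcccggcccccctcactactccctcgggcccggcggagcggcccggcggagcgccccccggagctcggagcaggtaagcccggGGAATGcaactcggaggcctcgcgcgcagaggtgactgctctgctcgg
Vgll4, chr6:114969154-114969453, minus strand: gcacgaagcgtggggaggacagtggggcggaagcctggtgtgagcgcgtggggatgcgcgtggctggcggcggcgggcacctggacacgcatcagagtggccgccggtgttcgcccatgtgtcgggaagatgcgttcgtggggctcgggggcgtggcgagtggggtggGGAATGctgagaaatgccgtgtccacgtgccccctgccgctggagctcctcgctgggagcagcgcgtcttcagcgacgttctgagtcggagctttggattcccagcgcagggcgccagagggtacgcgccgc
Lats2, chr14:57746074-57746373, minus strand: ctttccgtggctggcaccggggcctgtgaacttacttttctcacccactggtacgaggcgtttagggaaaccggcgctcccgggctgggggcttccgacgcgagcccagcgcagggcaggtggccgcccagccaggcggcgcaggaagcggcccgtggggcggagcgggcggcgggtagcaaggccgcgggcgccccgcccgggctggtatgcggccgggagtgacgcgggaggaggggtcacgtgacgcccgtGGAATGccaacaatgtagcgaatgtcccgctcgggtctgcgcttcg
RefSeq start windows were at hand for 7 of the 9 genes, 11 windows in all, and some of the windows of Tead3 and of Wwtr1 share bases. GGAATG, searched on both strands, stood in 7 of the 11 windows, against 14.7% of 32851 mouse start windows of the same length. Both Wwtr1 windows held the same copy, so the windows are not independent. By gene, a window of 5 of the 7 genes (those shown) held it. A gene can have several windows, so the share of windows is no measure for this count. The Tead3 window shown held 3 copies, the first 123 bases before the start. The Yap1 copy lay 141, the Wwtr1 copy 136 and the Vgll4 copy 82 bases before the start, while the Lats2 copy lay 4 bases after it. The Vgll4 copy stood in the part of its window outside the overlapped region, which ends at 114969239. No window of Tead2 or Lats1 held these letters. AAGTG, the core of the known motif of NKX2-1, a homeobox factor of lung epithelium named in the title of the series, stood in 4 of the 11 windows, against 46.4% of all start windows, and no base was shared with GGAATG. A match of letters is a description and does not measure binding.

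Each library came as a peak list with no read counts, so the depth is unknown and only ranks within a library were compared. The lists held 72935 to 85704 peaks in Prdm3/16KO libraries and 79525 to 112297 in Control libraries, and the same interval could be listed more than once. Distinct intervals numbered 46360 to 55301 in Prdm3/16KO and 48636 to 66142 in Control libraries. The 72935 strongest peaks of each list were used. A region received a rank score in each library, close to 1 for the strongest peaks, close to 0 for the weakest used, and 0 where none of these peaks lay there. A score of 0 therefore does not show closed chromatin. A peak with its summit, or highest point, inside a region took priority over a stronger peak that only overlapped it. A region beside a strong peak can thus have a low score. The weakest peak used had a −log10 p of 2 to 14 in Prdm3/16KO and of 6.59 to 35.6 in Control libraries. The deleted genes kept open regions: 38 to 51 deposited peaks belonged to Mecom in Prdm3/16KO and 27 to 48 in Control libraries, and 19 to 26 belonged to Prdm16 in Prdm3/16KO and 17 to 40 in Control libraries. A peak list is no check of the deletion. Marker genes of cell types were read only from the 72935 peaks used per library, within 1 kb of the gene body. A weaker deposited peak there would not be seen. Among 10 epithelial marker genes, 9 had such a peak in all 11 libraries, and Sftpc, a gene of alveolar type 2 cells, had one in 8. The summed best scores of these 10 genes were 6.23 to 6.99 in Prdm3/16KO and 6.49 to 6.97 in Control libraries. The sums of 8 mesenchymal genes did not overlap, at 1.84 to 2.39 in Prdm3/16KO and 2.62 to 3.47 in Control libraries, and Tcf21 had none of the peaks used in any library. For 6 endothelial genes the sums were 2.07 to 2.46 in Prdm3/16KO and 2.44 to 2.93 in Control libraries, with none of the peaks used at Cdh5 or Tie1. For 6 immune genes they were 1.22 to 1.83 in Prdm3/16KO and 1.45 to 1.77 in Control libraries, with none of the peaks used at Laptm5 or Tyrobp. For 4 erythroid genes they were 1.05 to 1.2 in Prdm3/16KO and 1.21 to 1.51 in Control libraries, without overlap and with none of the peaks used at Gata1. The part of such other cells in the results below was not tested.

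Chromatin at the Hippo core genes differed in both directions between the genotypes. Most calls lay inside gene bodies and few at gene ends, where calls were also fewer across the genome. Of the 95 regions, 24 were lower and 17 were higher in Prdm3/16KO libraries (limma on rank scores, Benjamini-Hochberg adjusted over all regions, threshold 0.05), and 54 passed in neither direction. The shares of 25.3% lower and 17.9% higher stand beside 20.8% lower and 17.0% higher among all 83262 regions, so the number of changes at these genes was close to that of the genome. The median difference was -0.0141 over the 95 regions and -0.0208 over all regions. Among the called regions, 58.5% were lower, and 55.1% genome-wide. With whole lists these shares were 71.4% at the 9 genes and 67.4% genome-wide, and with all peaks of −log10 q of at least 5 they were 69.2% and 67%. With lists limited to the strongest 36467 peaks they were 45.5% at the 9 genes and 52.1% genome-wide, with ranking by fold enrichment 46.9% and 51.3%, and with scores centred on each library's mean 51.3% and 45.9%. The balance of lower and higher calls thus moved with the scaling, at these genes as in the genome. In bulk libraries, a region open in fewer cells and one less open in each cell cannot be told apart.

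**Figure D1:**
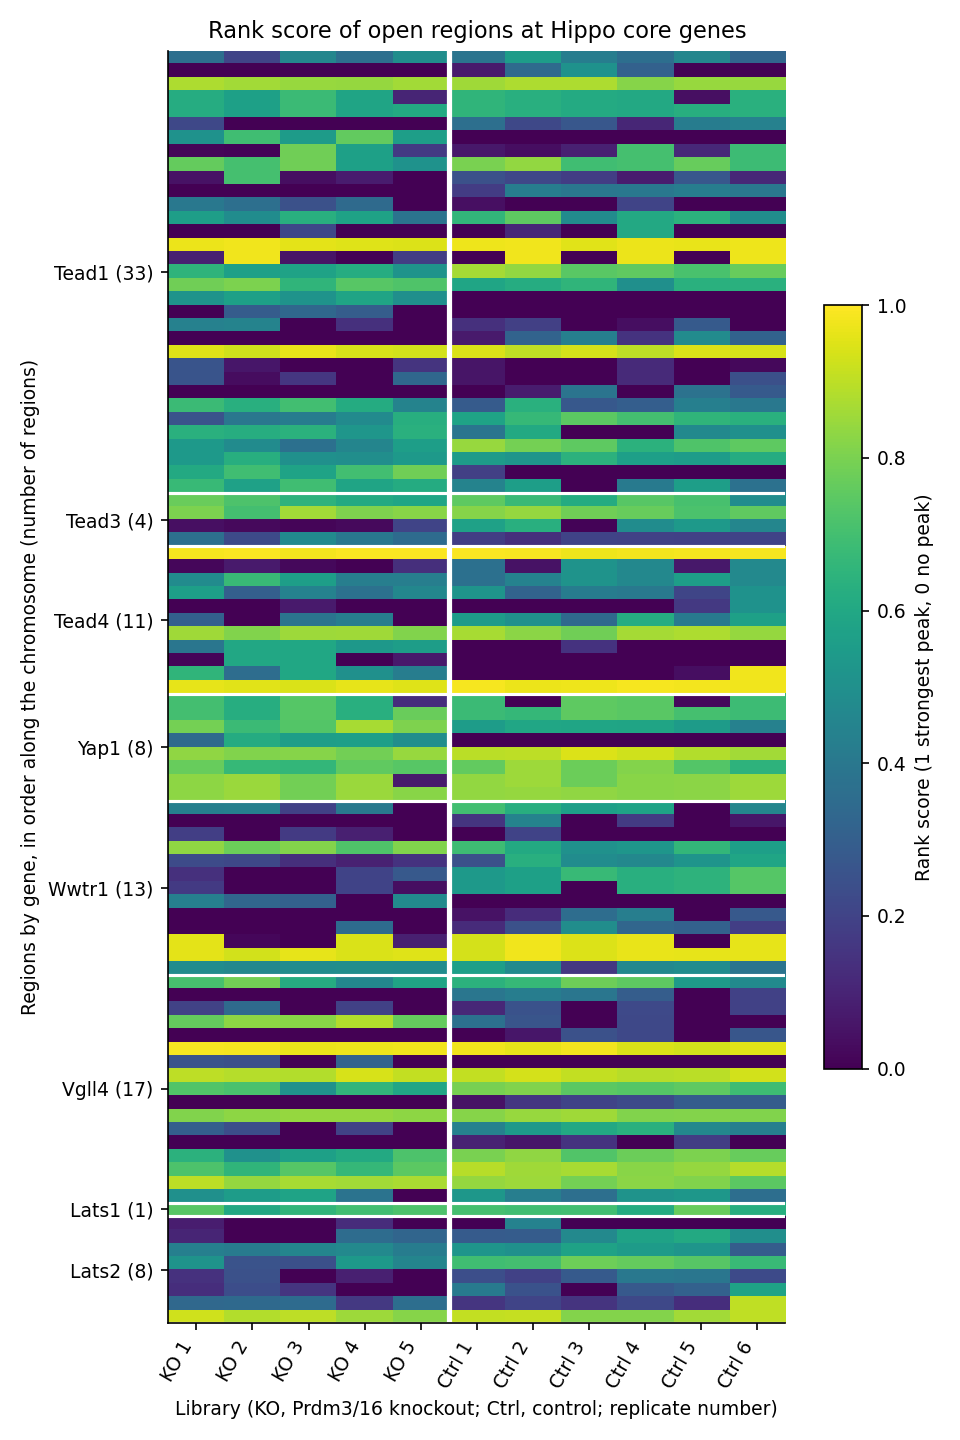
Rank score of each of the 95 regions (rows, by gene and in order along the chromosome, number of regions in brackets) in the 5 knockout and 6 control libraries (columns), with dark blue for no peak and yellow for the strongest peaks. Many rows keep one colour across both groups, while single rows of Tead1, Yap1 and Vgll4 have a peak in all libraries of one group and in none of the other.

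A peak was present in all 11 libraries at 48 of the 95 regions, which is 50.5%, beside 43.8% of all regions. At 3 regions, all 5 Prdm3/16KO libraries had a peak and none of the 6 Control libraries did, as at 3.89% of all regions. At another 3 regions the reverse held, with a peak in no Prdm3/16KO library and in all Control libraries, as at 2.94% of all regions. Each of these 3 of 95 is near the genome share. Fisher's exact test on presence could reach its threshold at 27 regions and called 7 with a peak in fewer and 7 with a peak in more Prdm3/16KO libraries. Genome-wide it called 23.9% of 24732 such regions in the first and 23.3% in the second direction. Leaving out any 1 of the 11 libraries left 3 to 5 calls in each direction.

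Regions within 1 kb of a gene end were mostly shared between the genotypes. Of 17 such regions, 15 had a peak in all 11 libraries, which is 88.2%. The share with a peak in all libraries was not worked out for regions within 1 kb of any gene end. Calls were 2 lower and 2 higher. That is 11.8% in each direction, beside 9.62% lower and 6.60% higher for regions within 1 kb of any gene end. A call in each direction came from a pair of neighbouring Tead3 windows, described below, that lost both calls with overlapping peaks merged. Elsewhere inside the gene bodies, 20 of 62 regions were lower and 12 higher, which is 32.3% and 19.4%, beside 24.9% and 19.1% of such regions at all genes. Outside the gene bodies, 2 of 16 were lower and 3 higher, which is 12.5% and 18.8%, beside 23.6% and 21.5% of regions outside all gene bodies and gene ends, and the farthest lay 33.4 kb from its gene. The gene table used gives no exons, so introns and exons were not told apart.

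**Figure D2:**
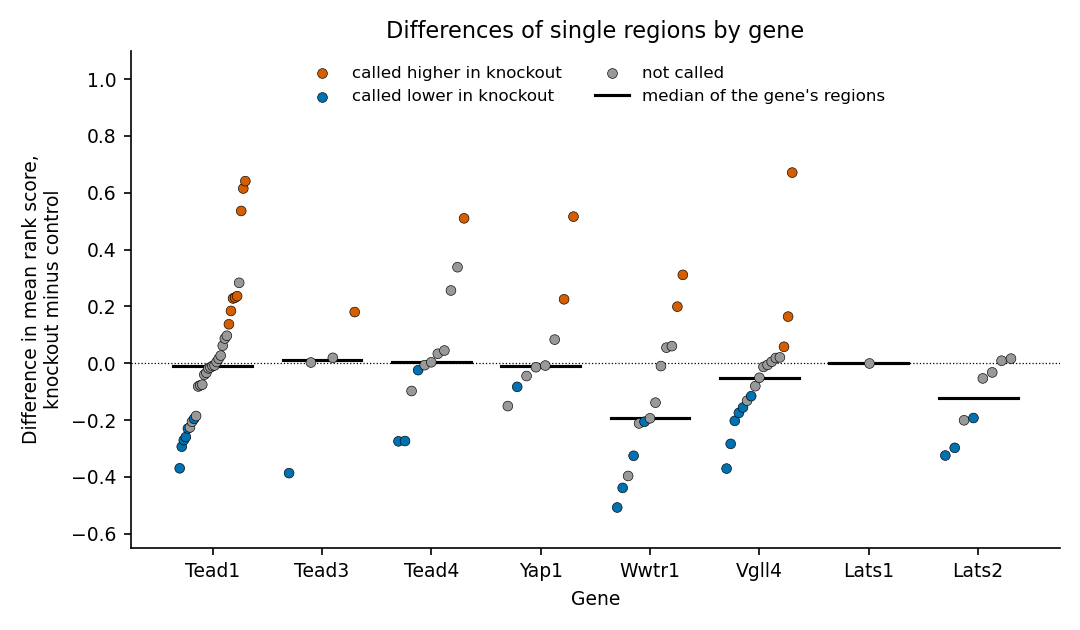
Difference in mean rank score, Prdm3/16KO minus Control, of each tested region by gene; orange points were called higher, blue points lower and grey points neither (limma, adjusted p threshold 0.05), and black bars give the median over the gene's regions. Tead1 spans -0.37 to 0.641, whereas no region of Lats2 was called higher.

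The co-activator genes come first. Yap1 lies on the minus strand of chromosome 9 at 7931999 to 8004638 (gene 22601) and had 8 tested regions, of which 1 was lower and 2 were higher. Its start region at 8004535 to 8004934 scored 0.829, 0.85, 0.786, 0.849 and 0.822 in Prdm3/16KO libraries, against 0.821 to 0.852 with a median of 0.836 in Control libraries. The groups overlapped, and the difference of -0.00839 ± 0.0143 (SE) did not pass (limma adjusted p = 0.678). Inside the body, toward the end of the gene, the region at 7935427 to 7935826 scored 0.344, 0.616, 0.562, 0.565 and 0.493 in Prdm3/16KO libraries and 0 in all 6 Control libraries. All knockout libraries thus had a peak where no control did (difference 0.516 ± 0.0566 SE, limma adjusted p = 7.68e-06). With lists of 36467 peaks, which hold fewer weak ones, its difference was 0.0972 (limma adjusted p = 0.069). The single lower region, at 7965666 to 7966065 near the middle of the gene, was strong in both groups. It scored 0.835, 0.81, 0.82, 0.787 and 0.845 in Prdm3/16KO libraries, against 0.863 to 0.946 with a median of 0.899 in Control libraries, without overlap (difference -0.0833 ± 0.0161 SE, limma adjusted p = 0.00105). Ranked by fold enrichment it differed by -0.0282 (limma adjusted p = 0.234).

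More peaks belonged to Yap1 in the knockout lists. The deposited lists held 14, 11, 11, 11 and 13 peaks there in Prdm3/16KO libraries and 8 to 10 in Control libraries, without overlap. An interval listed more than once was counted each time, and distinct intervals at Yap1 were not counted. The share of all genes whose counts do not overlap was not worked out. The knockout lists were on the whole the shorter ones, and the part of list length was not tested. Of the 8 tested regions of Yap1, all 5 Prdm3/16KO libraries had a peak in 8, and the Control libraries in 6 or 7. The region missing from all Control libraries was that at 7935427 to 7935826, described above. Control replicate 2 also lacked a peak at 7914083 to 7914482, a window that in most libraries takes its score from the same peak as its neighbour. The mean score over the 8 regions, however, overlapped, at 0.699 ± 0.0644 in Prdm3/16KO and 0.634 ± 0.0473 in Control libraries (SD, n = 5 and 6). With overlapping peaks merged, an alternative chosen after the data were seen, the mean over 5 regions did not overlap, at 0.726 ± 0.019 in Prdm3/16KO and 0.599 ± 0.0196 in Control libraries (SD, n = 5 and 6). A second rise, named after its values were seen, lay 2.17 kb beyond the gene's end at 7929628 to 7930027. There the score was 0.776 ± 0.0713 in Prdm3/16KO and 0.551 ± 0.0572 in Control libraries (SD, n = 5 and 6, limma adjusted p = 0.000421).

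Wwtr1, which encodes TAZ, had calls in both directions. The gene (97064) lies on the minus strand of chromosome 3 at 57455644 to 57575910, and of its 13 regions 4 were lower and 2 higher, while with lists of 36467 peaks 1 was lower and 2 were higher. The mean score over these regions was 0.289 ± 0.0625 in Prdm3/16KO and 0.428 ± 0.062 in Control libraries (SD, n = 5 and 6), and ranged over 0.236 to 0.371 in Prdm3/16KO and 0.326 to 0.497 in Control libraries. The mean over all regions of the genome differed by -0.0197 between the groups, that over Wwtr1 by -0.139. Several neighbouring windows of this gene, near the start and in the pairs described below, take scores from the same peak. With overlapping peaks merged, an alternative chosen after the data were seen, the mean over 9 regions was 0.293 ± 0.0257 in Prdm3/16KO and 0.371 ± 0.0488 in Control libraries (SD, n = 5 and 6), a difference of -0.0781. Its start region at 57575755 to 57576154 was among the strongest, with 0.959, 0.93, 0.961, 0.942 and 0.95 in Prdm3/16KO libraries, against 0.935 to 0.977 with a median of 0.962 in Control libraries. Here the groups overlapped (difference -0.0101 ± 0.00899 SE, limma adjusted p = 0.402).

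The greatest fall of Wwtr1 lay inside the gene at 57535497 to 57535896. Scores were 0.139, 0, 0, 0.2 and 0.281 in Prdm3/16KO libraries, against 0.54 to 0.737 with a median of 0.638 in Control libraries. No Control library came near the knockout values (difference -0.508 ± 0.0639 SE, limma adjusted p = 2.64e-05), and this call held in every alternative run. A window directly beside it, at 57536080 to 57536479, was also called lower and takes its score in several libraries from the same peak, so the pair is not independent. The greatest rise, at 57554556 to 57554955, was weak: 0.434, 0.331, 0.309, 0 and 0.48 in Prdm3/16KO libraries and 0 in all Control libraries (difference 0.311 ± 0.075 SE, limma adjusted p = 0.00495). The groups overlapped because the fourth knockout library had no peak. Another pair of neighbouring windows, named after their values were seen, had opposite calls, with 0.199 at 57471005 to 57471404 and -0.326 at 57471523 to 57471922. With overlapping peaks merged, the second had a difference of 0.191 and with lists of 36467 peaks 0.43, so only the rise of this stretch kept its direction.

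**Figure D3:**
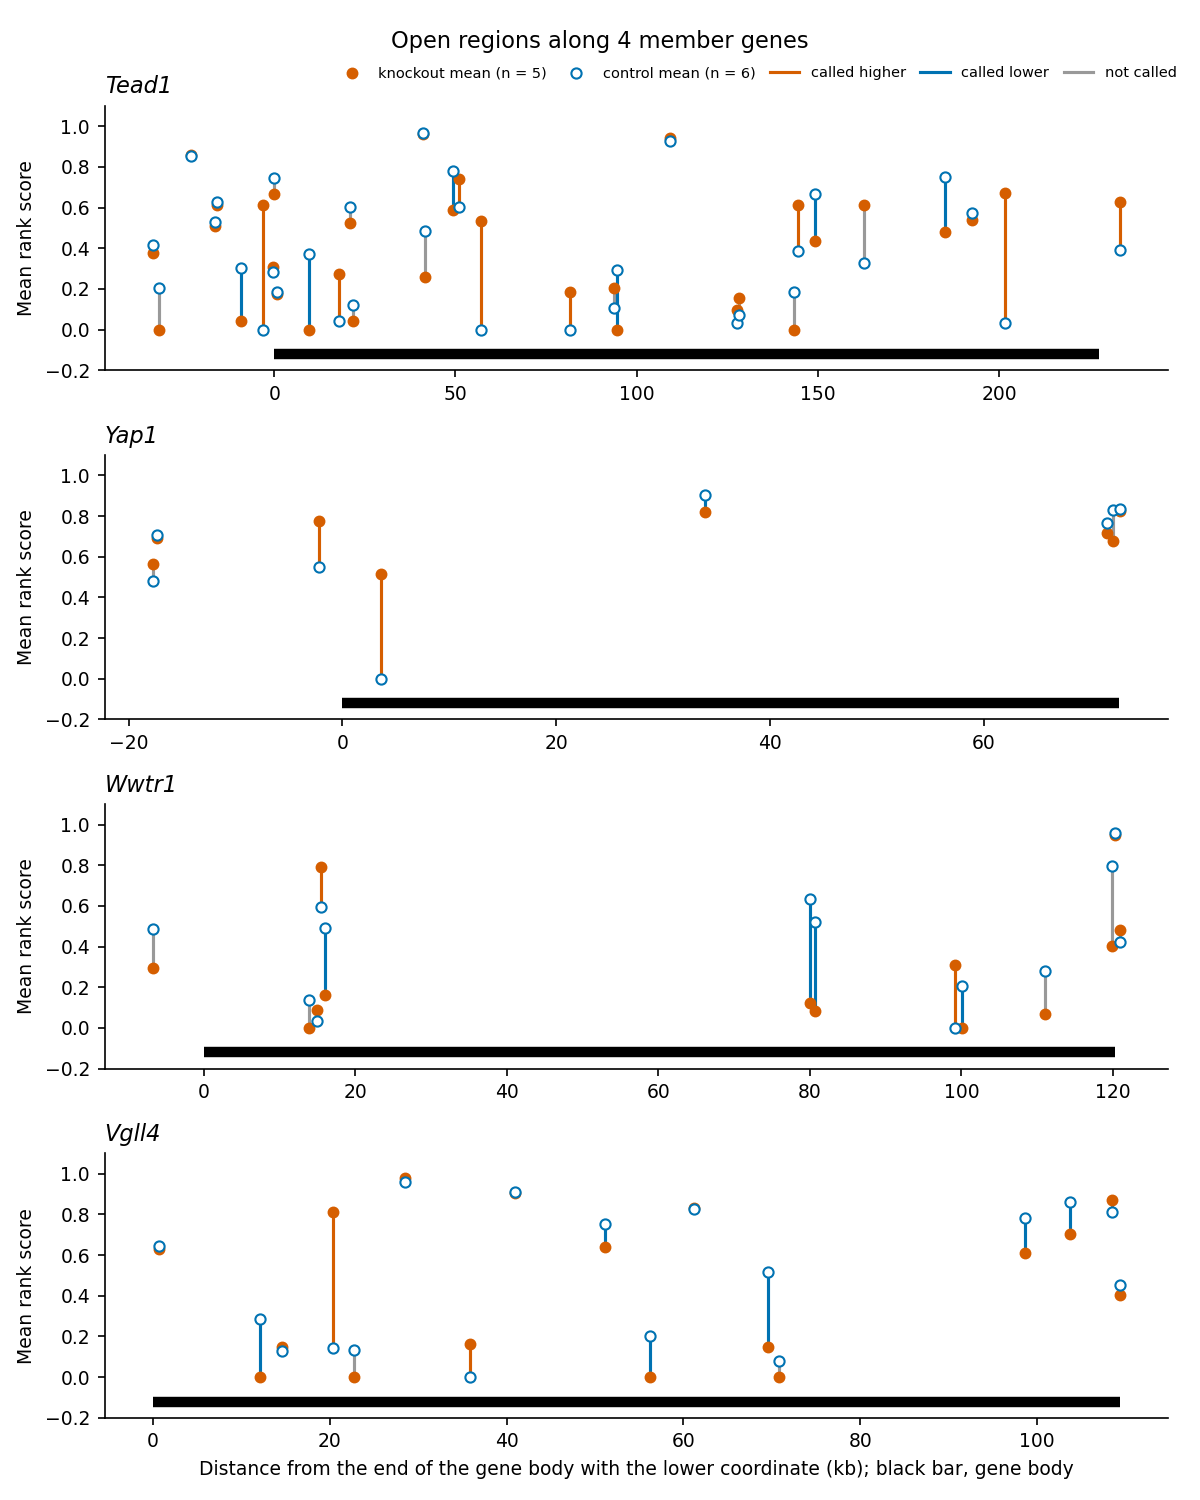
Mean rank score of each tested region along Tead1, Yap1, Wwtr1 and Vgll4, for the 5 knockout libraries (filled orange) and the 6 control libraries (open blue), against the distance in kb from the end of the gene body (black bar) with the lower coordinate; the line joining both means is orange where called higher, blue where called lower and grey otherwise. Regions with the highest scores have nearly the same mean in both groups, and the longest called falls of Wwtr1 lie inside the gene body.

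Among the TEAD genes, which encode the DNA-binding partners of YAP and TAZ, Tead1 had most regions and changed in both directions. It spans chromosome 7 from 112679356 to 112906784 (gene 21676), and of its 33 regions 6 were lower and 8 higher. With whole lists 4 were higher, with lists of 36467 peaks 3 were lower, and leaving out Prdm3/16KO replicate 1, 2, 3 or 4 left 5 higher each time. Its mean score was 0.414 ± 0.0297 in Prdm3/16KO and 0.39 ± 0.0312 in Control libraries (SD, n = 5 and 6), and the groups overlapped. At the gene end with the lower coordinate, the region at 112679192 to 112679591 scored 0.764, 0.706, 0.784, 0.57 and 0.509 in Prdm3/16KO libraries, against 0.687 to 0.839 with a median of 0.736 in Control libraries. The difference of -0.0818 ± 0.0501 (SE) did not pass (limma adjusted p = 0.216).

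The greatest rise of Tead1 lay deep in the gene at 112880755 to 112881154, with scores of 0.606, 0.693, 0.581, 0.698 and 0.783 in Prdm3/16KO libraries. In Control libraries only replicate 1 had a peak, at 0.189, and the median was 0. The difference was 0.641 ± 0.0587 (SE, limma adjusted p = 1.47e-06), and the call held in every alternative run. Of the regions with a peak in all libraries of one genotype and none of the other, 4 belonged to Tead1, and 3 of these were named after their values were seen. Just outside the gene body, 3.08 kb away, the region at 112676072 to 112676471 scored 0.511 to 0.76 in Prdm3/16KO libraries and 0 in all Control libraries (limma adjusted p = 1.48e-06). Inside it, the region at 112736265 to 112736664 scored 0.499 to 0.584 in Prdm3/16KO libraries and 0 in all Control libraries (limma adjusted p = 8.58e-07), although with lists of 36467 peaks its difference was 0.0716 (limma adjusted p = 0.112).

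Tead1 also held regions without a peak in any Prdm3/16KO list used, in the same gene body. The region at 112688656 to 112689055, its greatest fall, scored 0 in all 5 Prdm3/16KO libraries, against 0.179 to 0.425 with a median of 0.399 in Control libraries (difference -0.37 ± 0.0566 SE, limma adjusted p = 0.000146). A further one at 112773643 to 112774042 scored 0 in all Prdm3/16KO libraries and 0.0716 to 0.483 in Control libraries (limma adjusted p = 0.0061). Both were of middling or low strength in the Control libraries and absent from the knockout lists used.

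Tead4 (gene 21679, chromosome 6, 128227143 to 128300813) had 11 regions, 3 lower and 1 higher. Without Control replicate 1, 4 or 6 or Prdm3/16KO replicate 2, 1 was lower, and without Control replicate 6 or Prdm3/16KO replicate 1 or 4, 2 were higher. Its gene-end region at 128300310 to 128300709 scored 0.964, 0.954, 0.943, 0.964 and 0.951 in Prdm3/16KO libraries, against 0.97 to 0.987 with a median of 0.981 in Control libraries. The groups did not overlap and the region was called lower, but by a difference of only -0.0244 ± 0.00654 (SE, limma adjusted p = 0.00953), and with scores centred on each library's mean it was -0.00465 (limma adjusted p = 0.768). The rise at 128295942 to 128296341, inside the gene, was larger. It scored 0.391, 0.599, 0.596, 0.533 and 0.557 in Prdm3/16KO libraries, while 5 of the 6 Control libraries had 0 and replicate 3 had 0.147 (difference 0.51 ± 0.0571 SE, limma adjusted p = 9.21e-06). The greatest fall, at 128275528 to 128275927, scored 0.308, 0, 0.384, 0.425 and 0 in Prdm3/16KO libraries, against 0.341 to 0.621 with a median of 0.526 in Control libraries. These groups overlapped (difference -0.275 ± 0.0899 SE, limma adjusted p = 0.0276), and leaving out Control replicate 1, 4 or 6 or Prdm3/16KO replicate 2 or 5 took the adjusted p above the threshold, to between 0.0527 and 0.0734.

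Tead3 (gene 21678, chromosome 17, 28331671 to 28350805, minus strand) had 4 regions, all with a peak in every library. Neighbouring windows near its start were called in opposite directions. The window at 28349951 to 28350350 scored 0.0425, 0.0251, 0.0129, 0.0263 and 0.206 in Prdm3/16KO libraries, against 0.00902 to 0.632 with a median of 0.512 in Control libraries (difference -0.387 ± 0.0978 SE, limma adjusted p = 0.00667). The window at 28350430 to 28350829 scored 0.366, 0.226, 0.48, 0.399 and 0.35 in Prdm3/16KO libraries, against 0.136 to 0.201 with a median of 0.196 in Control libraries (difference 0.18 ± 0.0547 SE, limma adjusted p = 0.019). With overlapping peaks merged both lay in 1 region, which differed by 0.0396 (limma adjusted p = 0.495), and without Prdm3/16KO replicate 3 the second window had 0.151 (limma adjusted p = 0.0523). Tead2 (gene 21677, chromosome 7, 45215792 to 45233468) had no tested region. Its deposited peaks numbered 3 in Prdm3/16KO replicate 5 and 6 in Control replicate 6, and the other libraries had 0.

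Vgll4, the gene of the competitor of YAP and TAZ, lies on the minus strand of chromosome 6 at 114860621 to 114970007 (gene 232334). Of its 17 regions 6 were lower and 3 higher. Ranked by fold enrichment, 1 was lower, with lists of 36467 peaks 3 were, and without Prdm3/16KO replicate 1 only 1 was higher. The greatest rise, at 114880834 to 114881233 inside the gene, scored 0.764, 0.829, 0.821, 0.884 and 0.765 in Prdm3/16KO libraries, against 0 to 0.368 with a median of 0.108 in Control libraries. The groups lay far apart (difference 0.671 ± 0.0733 SE, limma adjusted p = 7.42e-06), and the call held in every alternative run. The greatest fall, at 114929933 to 114930332, scored 0.301, 0.242, 0, 0.196 and 0 in Prdm3/16KO libraries, against 0.43 to 0.636 with a median of 0.504 in Control libraries (difference -0.371 ± 0.0711 SE, limma adjusted p = 0.000949). With lists of 36467 peaks it was -0.0929 (limma adjusted p = 0.148). Near the start, the region at 114968840 to 114969239 scored 0.902, 0.842, 0.87, 0.863 and 0.872 in Prdm3/16KO libraries, against 0.747 to 0.854 with a median of 0.818 in Control libraries. The groups overlapped and the difference of 0.0579 ± 0.0191 (SE, limma adjusted p = 0.0285) lost its call with whole lists, at 0.0286 (limma adjusted p = 0.182), and without Control replicate 3 or Prdm3/16KO replicate 1, 3 or 5.

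**Figure D4:**
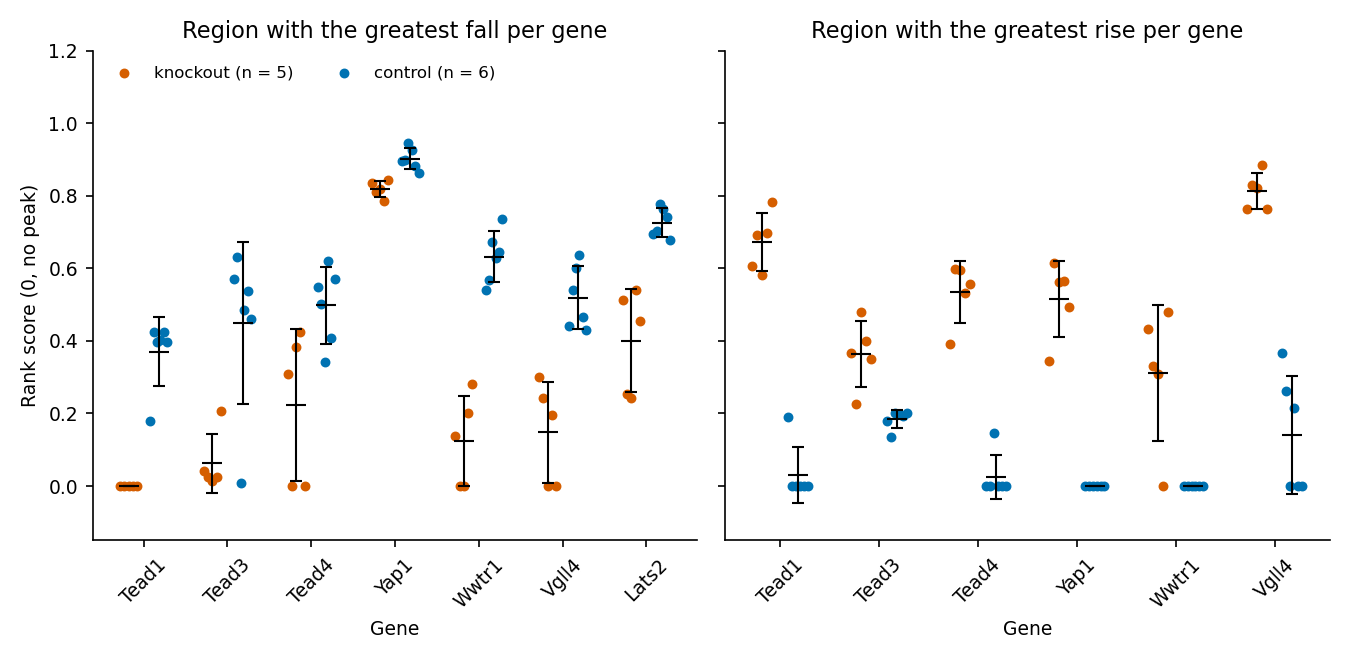
Rank score in every library of the region with the greatest called fall (left) and the greatest called rise (right) of each gene, in the 5 knockout libraries (orange) and the 6 control libraries (blue); bars give the mean ± SD. The Yap1 rise stands at 0 in all control libraries, and the Tead1 fall at 0 in all knockout libraries.

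Of the kinase genes, Lats2 had only lower calls and Lats1 had none. Lats2 (gene 50523, chromosome 14, 57689662 to 57746212, minus strand) had 8 regions, 3 lower and 0 higher. That is 37.5% lower, beside 20.8% of all regions. The 3 lower regions lay inside the gene body, and 24.9% of regions inside gene bodies, away from gene ends, were lower across the genome. The mean score over its regions was 0.303 ± 0.0279 in Prdm3/16KO and 0.438 ± 0.0433 in Control libraries (SD, n = 5 and 6). The groups did not overlap, at 0.263 to 0.334 in Prdm3/16KO and 0.385 to 0.509 in Control libraries, nor did they with overlapping peaks merged (difference -0.15 over 6 regions). The mean over all regions of the genome differed by -0.0197, with overlap. The share of all genes whose means do not overlap was not worked out. The greatest fall, at 57729854 to 57730253 inside the gene, scored 0.513, 0.255, 0.243, 0.541 and 0.454 in Prdm3/16KO libraries, against 0.677 to 0.778 with a median of 0.722 in Control libraries (difference -0.325 ± 0.057 SE, limma adjusted p = 0.000471), and this call held in every alternative run. With lists of 36467 peaks or ranking by fold enrichment, 1 Lats2 region was called lower. The start region at 57745996 to 57746395, which also touches the body of the overlapping gene Gm52140, scored 0.929, 0.884, 0.899, 0.854 and 0.82 in Prdm3/16KO libraries, against 0.815 to 0.911 with a median of 0.881 in Control libraries. It overlapped between the groups (difference 0.00868 ± 0.0234 SE, limma adjusted p = 0.801), so the lower scores of Lats2 lay away from this start. Lats2 has 2 listed starts. The lower regions at 57729854 and 57730512 lay 4364 and 3706 bases downstream of the other start, inside the gene.

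Lats1 (gene 16798, chromosome 10, 7681200 to 7716461, plus strand) had 1 region, just inside its start at 7681706 to 7682105. It scored 0.742, 0.602, 0.66, 0.698 and 0.719 in Prdm3/16KO libraries, against 0.617 to 0.766 with a median of 0.696 in Control libraries. The difference of -0.000611 ± 0.0342 (SE) did not pass (limma adjusted p = 0.991). The Lats1 body overlaps that of Pcmt1, and a gene overlap of this kind limits which of the 2 genes a region can be given to.

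A list of 30 other Hippo pathway genes, upstream kinases, scaffolds, junction proteins and VGLL relatives, gives the setting. Of their 239 regions 60 were lower and 35 higher in Prdm3/16KO libraries. That is 25.1% and 14.6%, beside 20.8% lower and 17.0% higher among all regions. Mob1a had no tested region. At 7 of the 239 regions all Prdm3/16KO libraries and no Control library had a peak, which is 2.93%, beside 3.89% of all regions. The reverse held at 6 regions, which is 2.51%, beside 2.94% of all regions. At Stk3, which encodes the kinase MST2 upstream of LATS, a region inside the gene at 35058935 to 35059334 on chromosome 15 scored 0 in all Prdm3/16KO libraries and 0.64 to 0.762 in Control libraries (limma adjusted p = 8.97e-08). Other great falls lay at Wwc2, Taok3, Map4k4 and Frmd6, with differences of -0.609, -0.57, -0.524 and -0.49, and that of Wwc2 turned to 0.0183 with overlapping peaks merged. With lists of 36467 peaks that of Frmd6 was -0.036 (limma adjusted p = 0.366). Mob1b, a co-activator of the LATS kinases, had a region 17.2 kb from the gene at 88703504 to 88703903 on chromosome 5 with scores of 0.79 to 0.886 in Prdm3/16KO libraries and 0 in all Control libraries (limma adjusted p = 2.24e-08). Regions at Amotl1 and Amot, which encode angiomotins that bind YAP, and at Ptpn14 likewise had 0 in all Control libraries, with means of 0.702, 0.534 and 0.465 in Prdm3/16KO libraries. With lists of 36467 peaks the difference at Amot was 0.0722 (limma adjusted p = 0.104). The rise at a Frmd6 gene end, 0.515, turned to -0.0242 with overlapping peaks merged.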

How the data were processed

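Per the labels' protocols, nuclei of EpCAM-selected lung cells were tagmented with the TDE1 enzyme. Per the submitters' processing notes, MACS2, DiffBind 3, deepTools and build mm10 were used, with no role named for any of them. The authors deposited 1 peak list per library, with a score (not used), a fold enrichment (a ratio), a −log10 p and a −log10 q value for each peak, made within that library. Depth is unknown, so the precision rests on the number of libraries.

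From these, the 72935 strongest peaks by −log10 p of each list were ranked. Windows of 400 bp around summits were built from the best ranks, and a library had a region where a peak overlapped by at least 100 bp. The score was that of the best peak with its summit inside the window or, without one, of the best overlapping peak. Regions in at least 3 of 11 libraries were tested with limma 3.58.1 (trend and robust options, genotype only, R 4.3.3) and Fisher's exact test, two-sided, with Benjamini-Hochberg adjustment over all testable regions at 0.05. Genes came from the RefSeq table of GRCm38.p6, with 21900 protein-coding genes. Where the labels do not say that libraries are separate animals, p-values measure only the spread between libraries, which may be technical. No 2 lists were identical.

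For each gene, the gene-end region with the highest mean score and the called regions with the greatest fall and rise are given, and for the other pathway genes the 5 with the greatest falls and the 5 with the greatest rises. The members and lists were chosen with earlier results of these data known. Alternatives covered list length, −log10 q, ranking by fold, overlap, library minimum, merged peaks, centring, limma options, a replicate block, gene distance and leaving out each library. Other steps ran in Python 3.11.15 with scipy 1.17.1, pandas 2.3.3, numpy 2.4.6 and, for plots, matplotlib 3.10.9.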

Additional observations from a re-analysis of the deposited data

Results flagged for a closer look

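Of 78 groups of values examined, 12 had a library far from the rest by Dixon's criterion, and chance gives about 1 in 20 where values are continuous. In 6 of the 12 the other libraries of the group share 1 value, so that any departure meets the criterion and this rate does not apply. Tead3 accounts for several: at 28349951, Prdm3/16KO replicate 5 scored 0.206, against 0.0129 to 0.0425 in the other knockout libraries, and Control replicate 3 scored 0.00902, against 0.46 to 0.632 in the other controls. At 28350430, Control replicate 2 scored 0.136, against 0.18 to 0.201. At Tead1, Control replicate 1 scored 0.179 at 112688656, against 0.396 to 0.425, and 0.189 at 112880755, where the other controls had 0. At Tead4, Control replicate 3 scored 0.147 at 128295942, where the other controls had 0. The mean score of Control replicate 6 over the regions of Tead4 was 0.574, against 0.373 to 0.436. In Control replicate 6 the neighbouring windows at 128299547 and 128300310 both scored 0.978. With overlapping peaks merged, the Tead4 means of the Control libraries ran from 0.575 to 0.622. The Yap1 mean score of Prdm3/16KO replicate 5 was 0.585, against 0.715 to 0.742 in the other knockout libraries. In Prdm3/16KO replicate 5 the windows at 7914083 and 8003848 scored 0.13 and 0.0733, beside neighbouring windows at 0.771 and 0.822. With overlapping peaks merged, the Yap1 means of the knockout libraries ran from 0.7 to 0.748. Tead2 had 3 deposited peaks in Prdm3/16KO replicate 5 and 6 in Control replicate 6, against 0 in the others. Lats1 had 3 deposited peaks in Prdm3/16KO replicate 3 and 3 in Control replicate 5, against 2 in the others. The causes were not tested.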

How the results depend on the processing

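Merging peaks moved the mean score over the Tead3 regions to a difference of 0.031, against -0.0464 with single windows, and the other 7 gene means kept their sign. Of the 41 called regions of the 9 genes, 14 kept direction and call in every alternative in which the region was found, 22 lost the call in at least 1 with direction kept, and 5 changed direction in at least 1. With lists of 36467 peaks, 10 regions of the 9 genes were lower by limma and 2 by Fisher's test, and 29 and 14 regions of the other pathway genes were lower and higher. Ranked by fold enrichment, 15 regions of the 9 genes and 37 of the other pathway genes were lower. Leaving out 1 library at a time gave 20 to 25 lower and 12 to 16 higher regions by limma, and 3 to 5 in each direction by Fisher's test, where fewer libraries allow only larger p-values. In the other alternatives these counts stayed within 1.5 times of those reported.

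Directions turned as follows, and the cause was not tested. With whole lists, Tead3 at 28349951 was 0.00308, Lats2 at 57745996 -0.00852 and Wwc2 at 47874433 0.0644. With a −log10 q of at least 5, Tead3 at 28349951 was 0.00801 and Lats2 at 57745996 -0.00856. Ranked by fold enrichment, Tead3 at 28349951 was 0.0212 and at 28350430 -0.00446, Yap1 at 8004535 0.0917, Wwtr1 at 57575755 0.0228, Lats1 at 7681706 0.0471 and Vgll4 at 114911544 0.00829. With peaks merged, Tead3 at 28349951 was 0.0396, Wwc2 at 47874433 0.0183, Frmd6 at 70824818 -0.0242, Tead4 at 128225040 0.0446 and Wwtr1 at 57471523 0.191, and with lists of 36467 peaks the last was 0.43. Centred per library, Yap1 at 8004535 was 0.0113, Wwtr1 at 57575755 0.00965 and Lats1 at 7681706 0.0191. Without 1 library, uncalled gene-end regions crossed 0: Lats1 at 7681706 ranged from -0.015 to 0.0199, Lats2 at 57745996 from -0.0043 to 0.0231 and Yap1 at 8004535 from -0.0141 to 0.00194.

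The replicate numbers did not pair the libraries, since the correlations of their deviations were 0.0517, -0.000479, -0.0234, 0.00415 and 0.139, and only numbers 1 and 5 had their own number as best match. With the replicate block, 21 regions of the 9 genes were lower and 13 higher, with 5 of Tead1 and 1 of Vgll4 among the higher and 2 of Tead4. Taking genes within 50 kb changed no count of the 9 genes. Depth is unknown, so a score of 0 may be a weak peak that a deeper library would show.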
